A study of Mus musculus with 6 samples.

Results

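The 10 genes followed here are known to be expressed for a time from the paternal allele of the mouse preimplantation embryo. This is because the maternal allele carries the histone mark H3K27me3. Their RNA was read in oocytes lacking Ring1, with or without deletion of Rnf2, both genes of Polycomb repressive complex 1 (PRC1). The 10 genes were Rbms1, Clic6, Flt1, Otx2, Runx1, Epas1, Prox1, Tle3, Sh3gl3 and Enc1, taken by symbol from a fixed list. That list was chosen with earlier results of these data known. All 10 were found, each on 1 row, among the 24028 genes of the deposited table. RNA was measured in fully grown oocytes at the germinal vesicle stage, the prophase arrest before meiotic maturation. The 3 dKO libraries came from females of genotype Ring1 -/-; Rnf2 f/f; Zp3-cre, and the 3 control libraries from Ring1 -/-; Rnf2 f/f females with no Cre. The background of all females was mixed FVB, 129/Sv and C57BL/6J, at about 3 months of age, and each library pooled 15 oocytes of 1 female, so the replicates were separate animals. Ring1 and Rnf2 encode the ubiquitin ligases of PRC1. Both groups lacked Ring1, and Zp3-cre, which acts in growing oocytes, removed Rnf2 in the dKO group alone, so the transgene itself and the missing Rnf2 cannot be told apart as sources of a difference. No library with intact Ring1 was measured, and neither embryos, alleles nor H3K27me3 were measured here.

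Most imprinted genes carry DNA methylation from one parent. A smaller set is marked in the growing oocyte by H3K27me3, which Polycomb repressive complex 2 (PRC2) places, and after fertilization this mark keeps the maternal allele silent while the paternal allele is transcribed. At most of these genes the imprint fades as the embryo implants, and only a few keep it in the placenta. PRC1, which ubiquitinates histone H2A, works beside PRC2 at many of the same silent, CpG-rich promoters.

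The promoter sequences are shown first because Polycomb complexes gather at CpG-rich promoters. RefSeq windows (build GRCm38.p6) of 300 bases, 250 before to 50 after a start, were matched by symbol for 7 of the 10 genes, with 13 windows in all. Clic6, Epas1 and Enc1 had none. The 250 bases before the start are printed 5′ to 3′ for 5 windows in which no exon is annotated, with each CpG in capitals. They lie on the minus strand at chr1:190170828-190171077 (Prox1), chr2:60963205-60963454 (Rbms1), chr5:147726012-147726261 (Flt1), chr16:92697330-92697579 (Runx1) and chr14:48667645-48667894 (Otx2).
Prox1: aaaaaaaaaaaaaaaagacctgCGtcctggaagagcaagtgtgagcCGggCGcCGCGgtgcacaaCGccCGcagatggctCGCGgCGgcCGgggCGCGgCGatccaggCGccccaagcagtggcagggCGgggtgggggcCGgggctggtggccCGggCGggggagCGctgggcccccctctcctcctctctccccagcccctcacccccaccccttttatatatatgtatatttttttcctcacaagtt
Rbms1: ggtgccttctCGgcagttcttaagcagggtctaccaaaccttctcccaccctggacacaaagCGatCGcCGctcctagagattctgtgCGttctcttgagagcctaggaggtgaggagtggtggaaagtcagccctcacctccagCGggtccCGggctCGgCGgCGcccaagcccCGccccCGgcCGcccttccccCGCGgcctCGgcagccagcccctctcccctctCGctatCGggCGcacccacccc
Flt1: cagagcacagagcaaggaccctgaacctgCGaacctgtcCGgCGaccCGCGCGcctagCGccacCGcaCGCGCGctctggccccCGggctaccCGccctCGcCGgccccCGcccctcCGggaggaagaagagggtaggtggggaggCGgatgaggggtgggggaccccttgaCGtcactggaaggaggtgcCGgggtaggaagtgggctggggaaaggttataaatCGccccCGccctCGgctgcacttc
Runx1, inner start: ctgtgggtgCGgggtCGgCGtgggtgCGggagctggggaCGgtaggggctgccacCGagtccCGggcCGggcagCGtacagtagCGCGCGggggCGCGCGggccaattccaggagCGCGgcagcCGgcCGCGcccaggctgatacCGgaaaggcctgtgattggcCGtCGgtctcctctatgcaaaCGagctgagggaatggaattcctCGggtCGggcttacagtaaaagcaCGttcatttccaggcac
Otx2, outer start: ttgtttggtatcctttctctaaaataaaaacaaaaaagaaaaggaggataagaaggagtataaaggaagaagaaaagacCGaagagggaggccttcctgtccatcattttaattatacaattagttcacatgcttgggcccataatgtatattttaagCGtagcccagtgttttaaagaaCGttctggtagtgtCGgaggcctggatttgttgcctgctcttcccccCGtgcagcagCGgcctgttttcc

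The stretches of Prox1, Rbms1, Flt1 and Runx1 held 20, 19, 23 and 27 CpG in 250 bases, and that of Otx2 held 6. Runx1 has a further start farther out, whose 300-base window held 2 CpG, against 35 in the window of its inner start. The 4 windows of Otx2 held 6, 8, 16 and 11. The windows of Tle3 and Sh3gl3 held 21 and 16, and the inner starts of Rbms1 and Prox1 held 49 and 14. Over the 13 windows the median was 16 CpG, against 7 (quartiles 3 and 20) over all 32851 windows of the table. Of the 13, 11 were above that median. All windows together cover 27025 symbols and were not limited to genes of the deposited table. Windows of the same gene, such as the 4 of Otx2, are not independent. The median GC content was 57.3% against 52.7% over all windows, and the median ratio of observed to expected CpG was 0.777 against 0.384. The letters GGGCGG, searched on both strands, were found in 6 of the 13 windows (46.2%) and in 35.7% of all windows. TATAAA, searched on both strands and unable to overlap GGGCGG, was found in 3 of the 13 (23.1%) and in 13.6% of all. These are descriptions of letters. The window of Otx2 that lies farthest out, the only one of the 5 printed whose gene was listed at 0 in every library, had the fewest CpG of those 5. Other windows of Otx2 held up to 16, and the outer window of Runx1, which is not printed, held 2 although Runx1 was above 0 in every library. A relation between CpG and level was not tested.

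The targeted gene followed the labels. Rnf2 stood at 53.7, 46.8 and 48.2 FPKM in controls 1 to 3 and at 14.8, 8.44 and 5.31 FPKM in dKO libraries 1 to 3. FPKM are fragments scaled to transcript length and to library size, which allows a rough comparison of levels between genes. The annotation and scaling used for these values are not stated in the sources used here. The Rnf2 change was -2.37 ± 0.30 on the log2(FPKM + 1) scale (SE; limma, Benjamini-Hochberg adjusted p = 0.000696). Ring1, which is deleted in both groups, lay between 0.0162 and 0.240 FPKM in the 6 libraries. The absolute depth is unknown, and the relative depth read from low values was 0.901 to 1.02 of control 1 in the other controls and 0.660, 0.807 and 1.09 of it in dKO libraries 1 to 3. Of the 12 oocyte markers all were tested, 0 rose and 3 fell, beside 14.0% and 7.04% of all tested genes. Among them, Gdf9 and Zp3 had control means of 2436 and 1437 FPKM and dKO means of 1756 and 917.6 FPKM, and neither passed. Zp3 did pass with libraries centred on their mean (limma adjusted p = 0.0295) and without dKO replicate 2 (0.0141). Those that fell were Bmp15, Mos and Kit, and 1 marker fell in a fit with no filter on low values. The 12 summed to 8120 to 8400 FPKM in controls and 4790 to 6700 FPKM in dKO libraries, with a median log2 change of -0.59. Across the tested genes the median SD between libraries was 0.141 log2 units in controls and 0.316 in dKO oocytes.

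Of the 10 genes 9 were higher in every dKO library than in every control library, and Otx2 was listed at 0 throughout. With no filter on low values, which lets every member above 0 into the fit, 9 of 9 rose and 0 fell (limma, adjusted over 20310 genes), while 9.88% of all genes above 0 rose and 2.68% fell in that fit. Groups did not overlap, with dKO higher, at 22.3% of these genes and, with dKO lower, at 12.5%. The median log2 change of the 9 was 2.92, and that of all genes above 0 was 0.029. In all, 8 members had at least 1 FPKM in at least 3 libraries and entered the filtered fit of 11334 genes, where 8 rose and 0 fell beside 14.0% of genes that rose and 7.04% that fell. That filter favours a gene that is low in controls and high in dKO oocytes, so the second count adds nothing to the first. As the members were chosen with earlier results of these libraries known, neither count is independent evidence of its direction. Since each library pools oocytes, a small rise in every oocyte and a large rise in a few of them cannot be told apart.

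**Figure D1:**
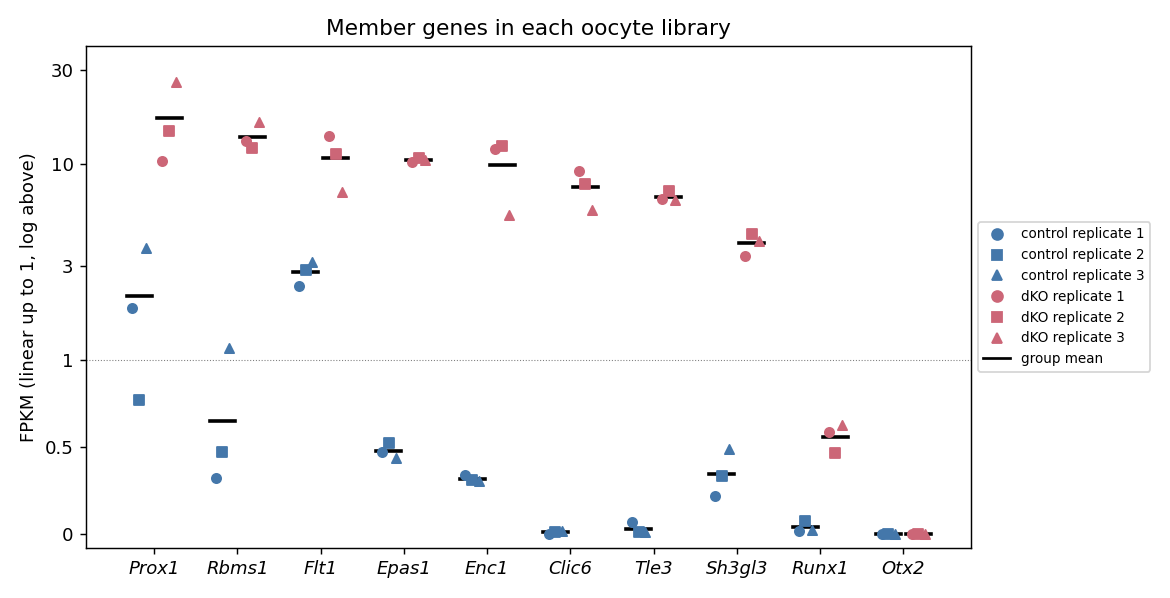
FPKM of the 10 genes in each library, ordered by dKO mean, on an axis that is linear up to 1 FPKM and logarithmic above it; points are libraries, black bars are group means and the dotted line marks 1 FPKM. In 9 genes all dKO points lie above all control points, from Prox1 (10.3 to 26.1 FPKM in dKO oocytes) down to Runx1 (0.465 to 0.622 FPKM), and Otx2 lies at 0.

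The summed level of the 10 genes was 5.37 to 9.25 FPKM in the controls and 79.1 to 82.6 FPKM in the dKO libraries. A control mean below 1 FPKM was seen in 8 of the 10, and 6 of these 8 reached a dKO mean of at least 3 FPKM. Among all genes, 13547 lay below the same control limit, among them the 3718 listed at 0 in all libraries. Of the 13547, 3.12% reached 3 FPKM in dKO oocytes, a limit chosen after the values were seen. At a limit of 1 FPKM the same 6 members passed, beside 11.3% of those genes. The 6 were Rbms1, Epas1, Enc1, Clic6, Tle3 and Sh3gl3. Runx1 and Otx2 were the other two.

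Transcription factors and a corepressor made up 5 of the 10. Prox1, a homeobox factor of lymphatic vessels, lens and liver, reached the highest mean. Controls 1 to 3 held 1.84, 0.770 and 3.70 FPKM, and dKO libraries 1 to 3 held 10.3, 14.7 and 26.1 FPKM. The groups did not overlap, but both were wide, with the highest value in replicate 3 of each. The change was 2.56 ± 0.41 log2 units (SE; limma adjusted p = 0.00255), an 8.1-fold ratio of means that becomes 13.1-fold without control replicate 3. Exons of Prox1 overlap Prox1os on the other strand, and the use of strand is not given in the sources used here, so reads of the pair cannot be told apart.

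Epas1 encodes HIF-2 alpha, a subunit of the hypoxia-inducible factors that is active in endothelium and in low oxygen. In controls its level was 0.469, 0.519 and 0.435 FPKM, against 10.2, 10.7 and 10.5 FPKM in the dKO libraries. Both groups were tight: the coefficient of variation of the dKO values was 2.5%, the smallest among the 9 genes. The change was 2.96 ± 0.18 log2 units (SE; limma adjusted p = 1.99e-05), a 22.1-fold ratio of means.

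Tle3 encodes a Groucho corepressor, which binds DNA only through other factors. Its controls were nearly empty, at 0.0650, 0.00719 and 0.0127 FPKM, and the dKO libraries held 6.61, 7.22 and 6.57 FPKM. The coefficient of variation of the dKO values was 5.4%. The change was 2.92 ± 0.17 log2 units (SE; limma adjusted p = 1.78e-05). No fold is given, here or for any other gene with a control under 0.1 FPKM.

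Runx1, a factor needed for blood stem cells to form, was low in both groups. The control values were 0.0179, 0.0726 and 0.0229 FPKM and the dKO values 0.586, 0.465 and 0.622 FPKM. The groups were apart, yet no library reached 1 FPKM, so the gene is below the filter. In the fit with no filter the change was 0.58 ± 0.06 log2 units (SE; limma adjusted p = 0.00346), a scale that understates the change of such a low gene. Otx2, a homeobox factor of the epiblast and the forebrain, was listed at 0 in all 6 libraries, and a 0 in such a table can also be a failed estimate. Otx2os1, its antisense neighbour, was also listed at 0 in all 6. Predicted genes overlap exons of Runx1 (Gm26626, on the other strand) and of Otx2 (Gm49154, on the same strand), and reads of each pair cannot be told apart.

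The remaining 5 genes act at membranes, in the cytoskeleton or on RNA. Rbms1, a protein that binds single-stranded DNA and RNA, had the largest log2 change of the 10 with a pseudocount of 1 and all libraries. Its levels were 0.323, 0.472 and 1.14 FPKM without Cre and 13.0, 12.0 and 16.3 FPKM with it. The change was 3.19 ± 0.24 log2 units (SE; limma adjusted p = 5.23e-05), and as with Prox1 both groups peaked in replicate 3. The order at the top is not fixed: without dKO replicate 3 Clic6 (3.24) and Enc1 (3.31) exceeded Rbms1 (3.07), and with a pseudocount of 0.1 Clic6 (6.12), Tle3 (5.78) and Enc1 (4.50) exceeded Rbms1 (4.36). Clic6, of the chloride intracellular channel family, went from 0, 0.0101 and 0.0178 FPKM in controls to 9.20, 7.90 and 5.78 FPKM in dKO oocytes. It had the lowest control mean of the 9 genes above 0, and its change was 3.08 ± 0.21 log2 units (SE; limma adjusted p = 3.07e-05).

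Enc1, a kelch protein that binds actin and serves ubiquitin ligases as an adaptor, held 0.340, 0.306 and 0.306 FPKM in controls. The dKO libraries held 11.9, 12.4 and 5.49 FPKM, so replicate 3 had less than the other two but still lay far above every control. The change was 2.98 ± 0.29 log2 units (SE; limma adjusted p = 0.000175). The ratio of means was 31.2-fold.

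Flt1, a receptor for vascular endothelial growth factor (VEGF), had the highest control mean of the 10. The controls had 2.39, 2.88 and 3.13 FPKM, and the dKO libraries had 13.9, 11.3 and 7.14 FPKM. The groups were apart even at the lowest dKO value. The change was 1.59 ± 0.25 log2 units (SE; limma adjusted p = 0.00256). Sh3gl3, an endophilin that bends membranes during endocytosis, went from 0.219, 0.334 and 0.484 FPKM to 3.40, 4.40 and 4.03 FPKM, an 11.4-fold ratio of means. Its change was 1.88 ± 0.18 log2 units (SE; limma adjusted p = 0.000184). Exons of Sh3gl3 overlap a predicted gene on the other strand.

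The order of levels differed between the groups. In dKO oocytes it ran Prox1, Rbms1, Flt1, Epas1, Enc1, Clic6, Tle3, Sh3gl3, Runx1 and Otx2 by mean FPKM. From Prox1 to Tle3 each gene overlapped its neighbours among these 7 in range, while Sh3gl3, Runx1 and Otx2 each stood apart from the gene above. In controls the order was Flt1, Prox1, Rbms1, Epas1, Sh3gl3, Enc1, Runx1, Tle3, Clic6 and Otx2, and there only Enc1 and Runx1, as neighbours in the order, did not overlap. By dKO mean the members from Prox1 to Sh3gl3 stood at the 85.3 to 66.0 percentile of all 24028 genes, and Runx1 at the 46.1 percentile. By control mean Clic6 and Tle3 had stood at the 26.6 and 31.9 percentile.

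**Figure D2:**
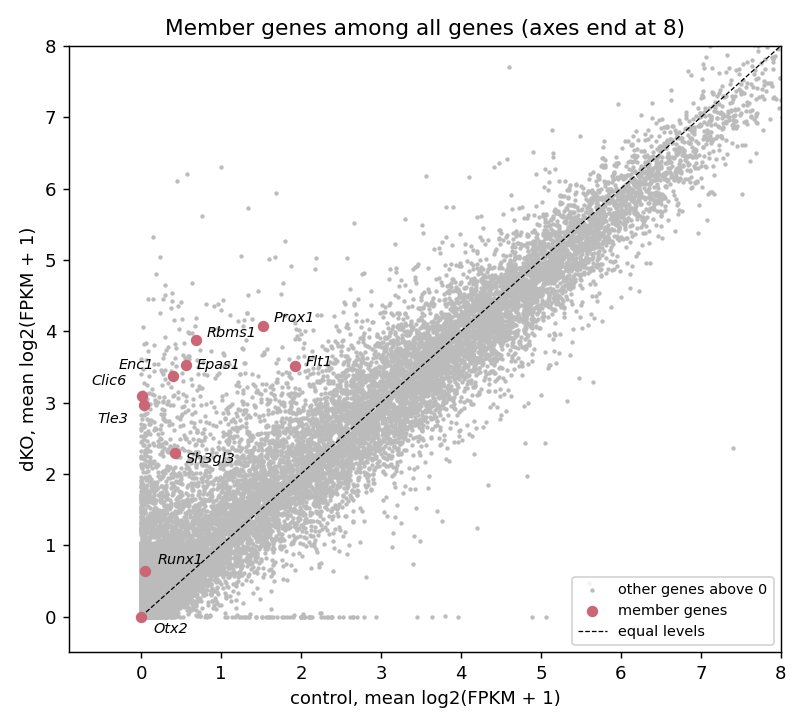
Mean log2(FPKM + 1) in controls (x) and in dKO oocytes (y) for every gene above 0 (grey) and the 10 genes (red), with both axes ended at 8; the dashed line marks equal levels. The 8 members of the filtered fit lie well above the line, Runx1 lies close to it at a change of 0.58, and Otx2 lies at the origin; other grey genes reach the same distance from the line.

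The genes did not share one pattern across the dKO libraries. Flt1 and Clic6 were highest in dKO replicate 1, Epas1, Enc1, Tle3 and Sh3gl3 in replicate 2, and Prox1, Rbms1 and Runx1 in replicate 3. The lowest value lay in replicate 3 for 4 of the 9 and in replicate 1 for 3. In these libraries the remaining Rnf2 RNA was highest in replicate 1 and lowest in replicate 3. Prox1 ran the other way and Flt1 and Clic6 the same way, and with 3 libraries this relation was not tested. The SD of the dKO values was 0.636 log2 units for Prox1, 0.586 for Enc1 and 0.444 for Flt1, above the median of 0.316 over tested genes, and it was under that median for the other 5 of the 8 members in the filtered fit.

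Close relatives and partners of the 10 genes were compared to see whether whole families moved. Among 44 such genes, 42 were above 0, and with no filter 8 of them rose and 0 fell, beside the 9.88% and 2.68% of all genes. In the filtered fit 26 were tested, of which 6 rose and 2 fell, beside 14.0% and 7.04% of all tested genes. The median log2 change of the 26 was 0.34, against -0.019 over all tested genes. Several members had relatives with large changes. Otx1, the other Otx homeobox gene, was at 12.6, 12.0 and 8.41 FPKM in controls and 64.9, 65.5 and 84.1 FPKM in dKO oocytes (2.60 ± 0.20 log2 units, SE; limma adjusted p = 5.05e-05). In both groups it was far above the 0 listed for Otx2.

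Runx2, a bone factor of the Runx family, went from 1.42 ± 0.27 to 7.78 ± 0.70 FPKM (SD, n = 3; limma adjusted p = 0.000281) and lay above Runx1 in every library. Nrp2, a co-receptor that binds VEGF proteins, went from 0.196 ± 0.111 to 6.14 ± 0.48 FPKM (SD, n = 3; limma adjusted p = 3.79e-05). Egln3, a prolyl hydroxylase that marks HIF alpha subunits for removal, went from 0.458 ± 0.113 to 4.09 ± 0.82 FPKM (SD, n = 3; limma adjusted p = 0.000313). Sh3glb1, an endophilin B, and Klhl25, a kelch relative of Enc1, had log2 changes of 0.87 and 0.74 (limma adjusted p = 0.0109 and 0.0290). The former lost its call without control replicate 1 or 2 (up to 0.0609) and the latter without any 1 control (up to 0.128), and also after quantile normalization (0.0747) and with array weights (0.0621).

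Relatives that fell in the filtered fit numbered 2 of 26, beside 7.04% of all tested genes. Tle6, a Groucho relative that belongs to the subcortical maternal complex, went from 315.5 ± 33.6 to 150.8 ± 64.5 FPKM (SD, n = 3; limma adjusted p = 0.0242). Hif1an, a hydroxylase that limits HIF activity, had 8.85, 8.97 and 6.32 FPKM in controls against 3.88, 5.26 and 3.62 FPKM with Cre (limma adjusted p = 0.0365). Tle6 lost its call without any 1 control (limma adjusted p up to 0.0923), and Hif1an without any 1 library other than dKO replicate 2 (up to 0.155). Both missed the threshold with no filter (0.0822 and 0.0606), and Hif1an also with array weights (0.0585). Other relatives did not pass the test. Rbms2 had 9.68 ± 0.84 and 12.96 ± 1.12 FPKM, Clic4 69.3 ± 4.2 and 78.9 ± 26.2 FPKM in control and dKO oocytes (SD, n = 3; limma adjusted p = 0.143 and 0.755), and Clic4 was past the threshold without dKO replicate 3 (0.0384). Prox2, Rbms3 and Clic3 had means under 1 FPKM in both groups.

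**Figure D3:**
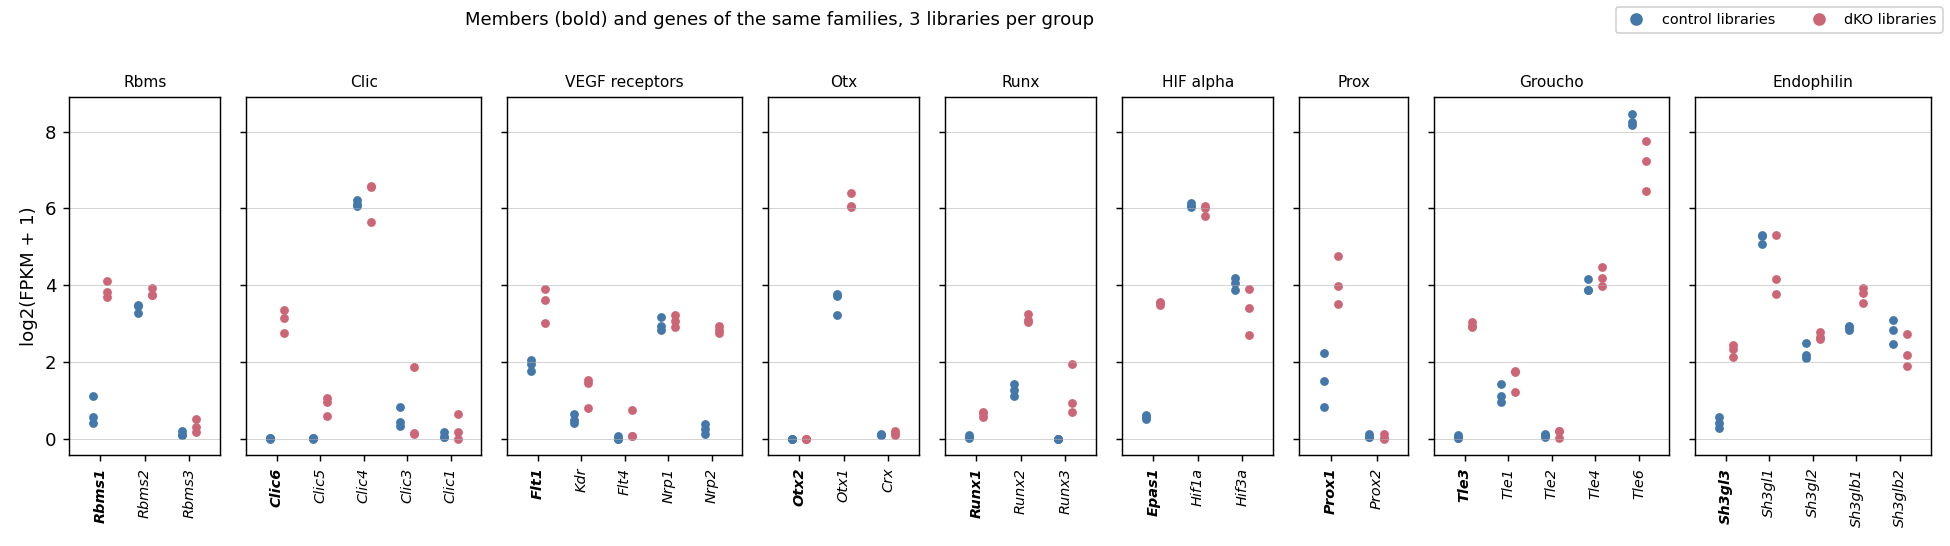
log2(FPKM + 1) of 9 members (bold, first in each panel) and relatives of the same families; each point is 1 library, blue for control and red for dKO. Otx1, Runx2 and Nrp2 show dKO points above all control points beside Otx2 at 0, Runx1 and Flt1, while the groups overlap at Clic4, Hif1a and Tle4.

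Further candidates for imprinting through maternal H3K27me3 were read from the same fits. Of 18 such genes 14 were above 0, of which 8 rose and 0 fell with no filter, and 7 were tested in the filtered fit, of which 6 rose (median log2 change of the 14, 0.81). Over all genes 9.88% rose with no filter and 14.0% in the filtered fit. This list was chosen with earlier results of these libraries known and is not independent evidence of its direction. Sall3, a zinc finger factor, went from 0.202 ± 0.104 to 9.75 ± 0.78 FPKM, Smoc1, a secreted calcium-binding protein, from 0.0565 ± 0.0622 to 5.98 ± 1.81 FPKM and Bbx, an HMG-box factor, from 0.694 ± 0.541 to 9.68 ± 1.98 FPKM (SD, n = 3). Their log2 changes were 3.16, 2.69 and 2.68 (limma adjusted p = 1.85e-05, 6.67e-05 and 0.000203). Xist, Otog, Myoz2 and Rbp2 were listed at 0 in every library, as Otx2 was.

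RNAs for the complex that places the mark were present in both groups. Of 11 PRC2 subunit genes 0 rose and 1 fell in the filtered fit, beside 14.0% and 7.04% of all tested genes. Their median log2 change was -0.26, against -0.019 over all tested genes. Eed, the subunit that reads H3K27me3, went from 45.9 ± 2.7 to 30.98 ± 3.34 FPKM (SD, n = 3; limma adjusted p = 0.0297). It lost its call without any 1 control (limma adjusted p up to 0.138), after quantile normalization (0.0531) and with replicate number as a block (0.0522).

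Genes next to the members on their chromosomes were then read, up to 3 on each side by the RefSeq gene order. Of 54 neighbours 44 were above 0, and with no filter 14 rose and 1 fell, with a median log2 change of 0.12 against 0.029 over all genes above 0. In the filtered fit 25 were tested, of which 7 rose and 2 fell. The shares over all genes were 9.88% higher and 2.68% lower with no filter, and 14.0% and 7.04% in the filtered fit. Clic6 and Runx1 are themselves direct neighbours on chromosome 16, so they are not separate places in the genome. Rcan1, an inhibitor of calcineurin that lies on the other side of Clic6 beyond 1 noncoding gene, went from 6.92 ± 0.12 to 18.07 ± 0.09 FPKM (SD, n = 3; limma adjusted p = 0.000711). In this stretch the 4 genes from Rcan1 to Runx1 had log2 changes of 1.27, 0.54, 3.08 and 0.58, and the noncoding one, 2410124H12Rik, was listed at 0 in every control.

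Peli2, a ubiquitin ligase gene of immune signalling on the chromosome of Otx2, went from 1.30 ± 0.67 to 10.49 ± 2.68 FPKM (SD, n = 3; limma adjusted p = 0.000634), although Otx2 stayed at 0. Tmem260, which lies between them, went from 3.20 ± 0.55 to 1.30 ± 0.48 FPKM (limma adjusted p = 0.0223). Hdgfrp3, near Sh3gl3, had 0.385, 0.453 and 0.463 FPKM in controls and 9.78, 4.38 and 3.66 FPKM in dKO oocytes (limma adjusted p = 0.00123). Near Rbms1 the receptor gene Pla2r1 and the integrin gene Itgb6 had log2 changes of 1.25 and 0.67, and near Prox1 Smyd2 and Ptpn14 had 1.39 and 0.81 (limma adjusted p = 0.00883, 0.0299, 0.0102 and 0.0211). Kif23, a mitotic kinesin near Tle3, had a log2 change of -0.54 (limma adjusted p = 0.0273). Tmem260, Ptpn14 and Kif23 lost their calls without any 1 control (limma adjusted p up to 0.0946, 0.108 and 0.141), and Itgb6 without control replicate 1 or 3 or dKO replicate 1 (up to 0.132). Kif23 also lost it with replicate number as a block (0.0592), with median-ratio scaling (0.0547) and after quantile normalization (0.130). With no filter Tmem260 (0.0653) and Ptpn14 (0.0522) missed the threshold, as did Itgb6 with libraries centred on their mean (0.0557) and with array weights (0.0829). After quantile normalization Itgb6 and Ptpn14 had changes of 0.06 and 0.36 (0.852 and 0.280).

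**Figure D4:**
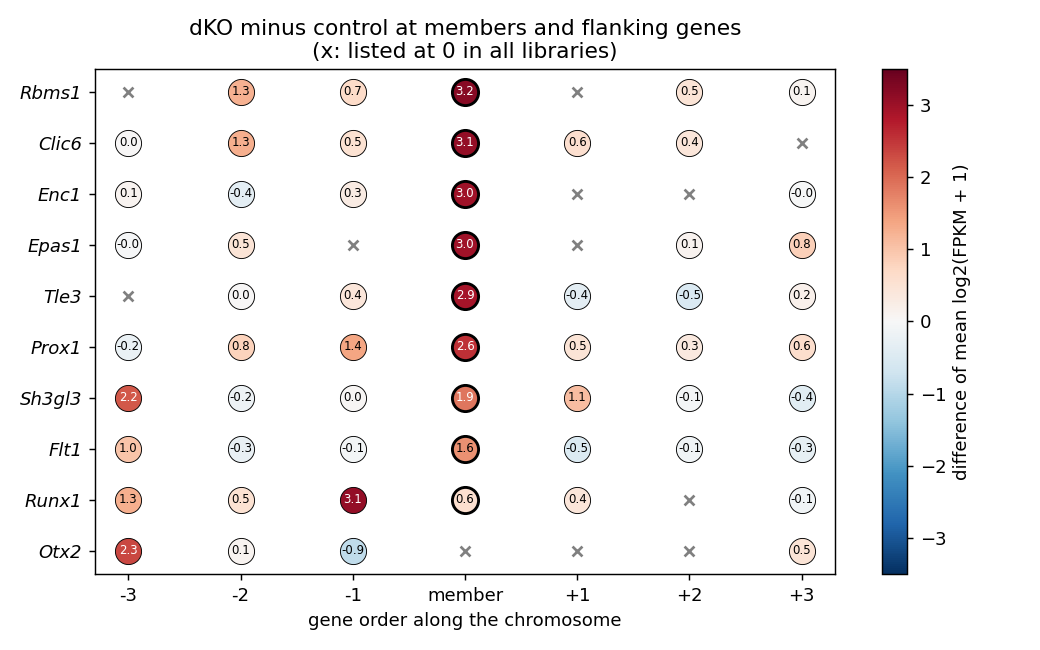
Difference of mean log2(FPKM + 1), dKO minus control, at each gene (heavy circle) and at up to 3 genes on either side in chromosome order; colour and printed number give the difference and crosses mark genes listed at 0 in all libraries. Apart from Clic6 beside Runx1, which is itself a member, and Hdgfrp3 and Peli2, the neighbours lie below 1.5 log2 units.

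The 3 genes outside the list that were most like the members' mean profile over the 6 libraries were Gabarapl1, an autophagy gene (Pearson r = 0.999), Ptgs2, a prostaglandin synthase (0.9989), and Bcor, a PRC1-associated corepressor (0.9987). They were taken from 10614 tested genes, and the likeness rests mainly on the difference between the groups, which all 6 points share. Gabarapl1 went from 0.387 ± 0.128 to 19.4 ± 1.6 FPKM, Ptgs2 from 0.597 ± 0.115 to 15.9 ± 2.0 FPKM and Bcor from 1.53 ± 0.28 to 21.7 ± 1.5 FPKM (SD, n = 3).

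Flt1, Epas1 and Prox1 are also known from vessels and Runx1 from blood, so markers of other cells were read beside them. Of 9 endothelial markers 2 were tested in the filtered fit, of which 0 rose and 1 fell, and the summed level of the 9 was 24.8 to 33.9 FPKM in controls and 20.6 to 29.4 FPKM in dKO oocytes. Emcn was listed at 0 in every library and Cdh5 in 5 of them, at 0.0317 FPKM in dKO replicate 2. The sum came mostly from Pecam1, at 25.2 ± 4.1 and 14.9 ± 2.6 FPKM, and Tek, at 4.05 ± 0.72 and 5.43 ± 0.31 FPKM (SD, n = 3). The sum therefore follows Pecam1 and hides the direction of the others. The median log2 change of the 8 markers above 0 was 0.28, against 0.029 over all genes above 0. Tek and Kdr, a VEGF receptor on this list, were higher in every dKO library than in every control library, and neither passed the test. Pecam1 was the one that fell (limma adjusted p = 0.0280), and it lost its call without control replicate 1 or 3 or dKO replicate 1 (up to 0.130), with array weights (0.0766) and with no filter (0.0505). With no filter 0 endothelial markers rose and 0 fell. The 7 blood and immune markers summed to 0.568 to 2.10 FPKM in controls and 1.53 to 3.61 FPKM in dKO oocytes, led by Cd68 and, in dKO replicate 3 alone, Lyz2 (2.85 FPKM). Of these, 1 was tested in the filtered fit and did not pass, and with no filter 0 rose and 0 fell.

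Some granulosa and cumulus markers rose. Of 14 markers 8 were tested in the filtered fit, of which 4 rose and 0 fell, beside 14.0% of all genes that rose. Without the filter the count was 5 higher and 0 lower, beside 9.88% of all genes. Their summed level was 48.0 to 54.3 FPKM in controls and 86.0 to 90.5 FPKM in dKO oocytes. Ptgs2, named above for its likeness to the members, is among the 4, and the other 13 markers summed to 47.5 to 53.8 FPKM in controls and 72.3 to 74.1 FPKM in dKO oocytes. Esr2 and Nr5a2 had the highest means and weigh most in these sums. The median log2 change of the 14 was 0.34, against 0.029 over all genes above 0. Esr2 did not pass (19.6 ± 3.1 and 24.1 ± 0.7 FPKM, SD, n = 3; limma adjusted p = 0.242), and Nr5a2 was at 16.5 ± 2.0 and 25.5 ± 1.6 FPKM (SD, n = 3; limma adjusted p = 0.0288, up to 0.152 without any 1 control and 0.0591 with libraries centred on their mean). None of the 14 was at 0 in all libraries. The 8 theca and stroma markers summed to 0.754 to 1.41 FPKM and 2.76 to 3.83 FPKM, and 3 rose with no filter, among them Dcn, at 0.207 ± 0.068 and 1.41 ± 0.40 FPKM (SD, n = 3; limma adjusted p = 0.0142 with no filter, up to 0.0818 without any 1 control, 0.0516 with the replicate block and 0.0758 after quantile normalization). The part of other ovarian cells in the rise of the members was not tested.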

How the data were processed

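Total RNA of germinal vesicle oocytes was measured in 6 libraries. Granulosa cells were pipetted off, amplification used the Ovation v2 kit and sequencing a HiSeq, per the labels' protocols. The deposited values are FPKM, 1 column per library. TopHat2 2.0.11, Cufflinks 2.0.2 and build mm9 are named in the submitters' processing notes; their roles, the annotation, strand and scaling are not stated there.

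Repeats of a symbol with all its values were removed (497 of 24525 rows). A gene was kept where 3 or more libraries reached 1 FPKM (11334), or all above 0 (20310, no filter), and limma 3.58.1 in R 4.3.3 (lmFit, eBayes with trend, two-sided) was fitted to log2(FPKM + 1), with Benjamini-Hochberg adjustment over all genes fitted and a threshold of 0.05. Low genes' changes are understated on this scale. The depth in reads is unknown and counting intervals are left out. The fit was tested on simulated data with the same spread in both groups, so the wider spread of the dKO libraries was not covered. Members and gene lists were chosen with earlier results of these data known. Named genes are the members, up to 3 rising and 3 falling genes of each relative, candidate and PRC2 list (otherwise the 2 of highest mean), the 2 highest of each marker list, neighbours past the threshold and the 3 most alike. Per the labels, equal replicate numbers mark a common flow-cell lane. Deviations of such pairs from the group means correlated at 0.147, 0.107 and 0.0637. Pairs with unequal numbers correlated at -0.11 to 0.0179. The index sequence followed the group, so the effects of index and genotype cannot be told apart. Promoters are RefSeq's (GRCm38.p6), and no coordinate was taken from the mm9 table. Alternatives were other pseudocounts, filters, scalings, variance models, the block and leaving out each library.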

Additional observations from a re-analysis of the deposited data

How the results depend on the processing

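All 8 members of the filtered fit stayed past the threshold and higher in dKO oocytes under every alternative in which they were tested, and Runx1 did so in the fits with no filter. The count was 9 with no filter and 7 at 5 FPKM, where Sh3gl3 and Runx1 were not tested. The lowest log2 change with a pseudocount of 1 was 2.92 for Rbms1, 2.85 for Clic6, 1.40 for Flt1, 2.67 for Epas1, 2.21 for Prox1, 2.61 for Tle3, 1.44 for Sh3gl3, 2.64 for Enc1 and 0.38 for Runx1. The size depends on the pseudocount for genes near 0: with 0.1 the change was 6.12 for Clic6, 5.78 for Tle3 and 2.27 for Runx1. With the replicate block 8 members rose and 0 fell, and the limma adjusted p was 0.000145 for Prox1 and 0.0372 for Runx1. The block changed only the calls of Eed, Kif23 and Dcn among the named genes.

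Over all genes 66.5% of the calls were higher in dKO oocytes, 52.6% after quantile normalization (1191 higher, 1073 lower), 48.0% with libraries centred on their mean (1452 and 1572; median change -0.125), 54.0% at 5 FPKM (655 and 559), 78.6% with no filter, and 51.7% to 82.7% with 1 library left out (lower calls 231 to 1465; 1465 without dKO replicate 2 and 258, 262 and 231 without control replicate 1, 2 and 3). Of the candidates 2 were tested and 2 rose at 5 FPKM. The lower counts of the small lists varied. For relatives it was 1 with array weights, 0 with no filter and 0 to 4 with 1 library left out. For PRC2 subunits it was 0 after quantile normalization, 3 with centring on the mean, 2 with array weights and 0 to 4 with 1 library left out. For neighbours it was 1 after quantile normalization, median-ratio scaling, with the block, with no filter and at 5 FPKM, and 0 to 4 with 1 library left out, and the higher count was 14 with no filter and 3 at 5 FPKM. The cause was not tested, except that the filters change the number of genes tested. Depth limits the control values of Clic6, Tle3 and Runx1, which lie under 0.1 FPKM.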

Other observations

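Further relatives of the members were outside the rule for named genes and were chosen for mention after their values were seen. Clic5, of the same family as Clic6, had 0.0114, 0.00707 and 0 FPKM without Cre and 1.09, 0.952 and 0.509 FPKM with it (limma adjusted p = 0.0122 with no filter). Arnt2, a partner of HIF alpha subunits such as Epas1, had 0.0493, 0.0364 and 0 FPKM without Cre and 0.613, 1.61 and 1.15 FPKM with it (limma adjusted p = 0.0199 with no filter). Runx3 had 0, 0.00107 and 0 FPKM without Cre and 0.897, 0.630 and 2.87 FPKM with it, with groups that did not overlap and a limma adjusted p of 0.0681 with no filter. Kdr, the other main VEGF receptor beside Flt1, had 0.552, 0.394 and 0.325 FPKM without Cre and 1.74, 1.89 and 0.736 FPKM with it (limma adjusted p = 0.0879 with no filter). Cbfb, the binding partner of Runx proteins, had 3.76, 3.40 and 2.40 FPKM without Cre and 13.7, 5.39 and 4.82 FPKM with it (limma adjusted p = 0.0816). In all 5 genes every dKO value lay above every control value, and the last 3 did not pass the test. The same held at 22.3% of all genes above 0. As the 5 were picked after their values were seen, their number says nothing about relatives as a whole. Among the relatives named above, the groups overlapped at Clic3, Clic4, Rbms3 and Prox2.

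Jade1 and Slc38a4, which stand on the candidate list, were low in these oocytes. Jade1 had 0.0732, 0.00674 and 0.0478 FPKM without Cre and 0.932, 0.454 and 0.281 FPKM with it (limma adjusted p = 0.0679 with no filter). Slc38a4 had 0, 0.00955 and 0.00846 FPKM without Cre and 0.0130, 0.161 and 0.159 FPKM with it (limma adjusted p = 0.175 with no filter).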
